A study of Mus musculus with 4 samples.

Results

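Laminins are the cross-shaped glycoproteins that build the first sheet of a basement membrane, the thin matrix layer on which cells sit. Each laminin is a trimer of 1 alpha, 1 beta and 1 gamma chain, and nidogens are the linker proteins that bind the gamma 1 chain and the collagen IV network. Chains are joined in the endoplasmic reticulum, where beta and gamma chains pair first and the alpha chain allows secretion of the trimer. In bone and bone tumours the laminin layer is found mainly around blood vessels, fat cells, nerves and muscle fibres, and many mesenchymal cell lines also make laminin chains.

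The genes described here are 9 laminin and nidogen genes, picked by symbol out of 55487 genes in the deposited count table: Lama2, Lama4, Lama5, Lamb1, Lamb2, Lamb3, Lamc1, Nid1 and Nid2. They were picked with their levels in these libraries known, so their values are given as a description. Counts of calls among them come from the same contrast and support nothing here. All 9 were found in the table, and 8 passed the filter on low counts used for fitting; Lamb3 did not.

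The samples were tumours grown from AXT, a mouse osteosarcoma model made by forcing c-MYC expression in stromal cells of the bone marrow. The knockout group comprised 3 libraries (c11, c15 and c22) from HIF-1alpha knockout lines that the labels call HIF-1alphaKO AXT1-1, HIF-1alphaKO AXT1-2 and HIF-1alphaKO AXT2; which library is which line is not stated in the sources used here. The mock group was 1 library from Mock AXT cells, with the genotype given as WT. In both groups the cells, in matrigel, were placed in a C57BL/6scid mouse, an immunodeficient strain, and the tumour was taken at day 1. Matrigel is itself an extract of basement membrane protein, rich in laminin and nidogen, and it adds protein around the cells in every sample. The labels do not say whether a line is 1 clone or how many animals were used, so the spread between knockout libraries may include technical and clonal spread alike.

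Levels are CPM, a gene's count scaled to the library's total count, with the SD of the knockout values and the SE of the log2 fold change (knockout over mock) fitted with edgeR. Totals were 12910058 counts in c11, 13193264 in c15, 13081007 in c22 and 12383719 in mock. The mock library had no replicate. RNA of Hif1a, the targeted gene, was at 104 (c11), 98.7 (c15) and 22.3 CPM (c22), against 107 CPM in mock, and a gene-level count does not show whether intact protein was made. The tumour RNA carried bone lineage transcripts, with Col1a1 at 1913 (c11), 1093 (c15) and 4700 CPM (c22), against 862 CPM in mock, and Col1a2 at 1082, 1627 and 3398 CPM, against 2292 CPM. Of 8 osteoblast lineage markers, all tested, 1 (Col1a1) was above mock in all 3 knockout libraries and 4 (Runx2, Sp7, Ibsp and Bglap, named after their values were seen) were below, with a median log2 fold change of -0.55. Runx2, the lineage's transcription factor, was at 133, 139 and 116 CPM in the knockout libraries, against 245 CPM in mock. Markers of skeletal muscle, erythroid cells and macrophages were below mock in all 3 knockout libraries for 10 of 10, 5 of 5 and 7 of 8 genes. Of all 15706 tested genes, 21.0% were above mock in all 3 knockout libraries and 22.5% were below. Fewer cells of a type and less RNA per cell cannot be told apart in such bulk samples.

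Among the 9 genes, Lamb1 stood apart. Lamb1 encodes the beta 1 chain, the beta chain of most embryonic and stromal laminins. It lies on chromosome 12 from 31265234 to 31329644 (GRCm38, plus strand). Lamb1 was at 86.4 (c11), 78.0 (c15) and 128 CPM (c22), against 12.4 CPM in mock. All 3 knockout libraries were above mock, and the highest of them was 1.64 times the lowest. The knockout mean was 97.5 ± 26.9 CPM (SD, n = 3), 7.84 times the mock level. The fitted log2 fold change was 2.98 (SE 0.50), and 1.29% of the 15706 tested genes had a higher one.

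Lamb2 encodes the beta 2 chain, which takes the place of beta 1 at neuromuscular junctions, in the kidney filter and in vessel walls. It lies on chromosome 9 from 108479736 to 108490530 (plus strand). Lamb2 was at 111 (c11), 65.0 (c15) and 96.6 CPM (c22), against 102 CPM in mock. The mock value lay within the knockout range, and the log2 fold change was -0.17 (SE 0.39). Lamb3 encodes the beta 3 chain of epithelial laminin. It lies on chromosome 1 from 193207699 to 193343878 (plus strand). It had 1 count in c11, 0 in c15 and 4 in c22, against 0 in mock. A count of 0 allows up to 0.227 CPM in c15 and 0.242 CPM in mock, for counting error only, so Lamb3 was near or below what these libraries can detect.

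The sequences upstream of both beta chain genes are shown because the paralogues encode the same class of chain and had different values. They are the bases before the start of the deposited gene model within the RefSeq promoter windows (GRCm38.p6), and 6 of the 9 genes had such a window. Capitals mark matches, on either strand, to 7 motifs: the HIF core ACGTG or GCGTG, the E-box CACGTG bound by MYC (which contains ACGTG), the ATF4 motif TGATGNAAT, the endoplasmic reticulum stress element (CCAAT, then 9 bases of any kind, then CCACG), the ATF6 motif TGACGTGG (which also contains ACGTG) and the GC box GGGCGG.
Lamb1, chr12:31265043-31265233, plus strand: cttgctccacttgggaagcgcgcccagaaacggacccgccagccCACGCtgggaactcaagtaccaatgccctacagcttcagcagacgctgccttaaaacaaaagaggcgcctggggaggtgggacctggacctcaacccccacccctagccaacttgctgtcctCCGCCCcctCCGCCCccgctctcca
Lamb2, chr9:108479612-108479735, plus strand: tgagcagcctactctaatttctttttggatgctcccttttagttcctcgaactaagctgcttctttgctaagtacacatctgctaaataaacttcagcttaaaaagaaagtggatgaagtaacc

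The Lamb1 window held 1 match to GCGTG and 2 GC boxes, all 3 read on the minus strand. Of 32851 RefSeq promoter windows of 300 bases, 32.4% held GCGTG, 19.6% held ACGTG and 35.7% held the GC box. E-boxes were in 7.15% of the windows, the ATF4 motif in 0.965%, the ATF6 motif in 0.676% and the stress element in 0.119%. The whole 300-base window of Lamb2 matched none of the 7 motifs, and that of Lamb1 matched neither the E-box nor any of the stress motifs. A match or its absence in these windows describes the letters and nothing more.

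**Figure D1:**
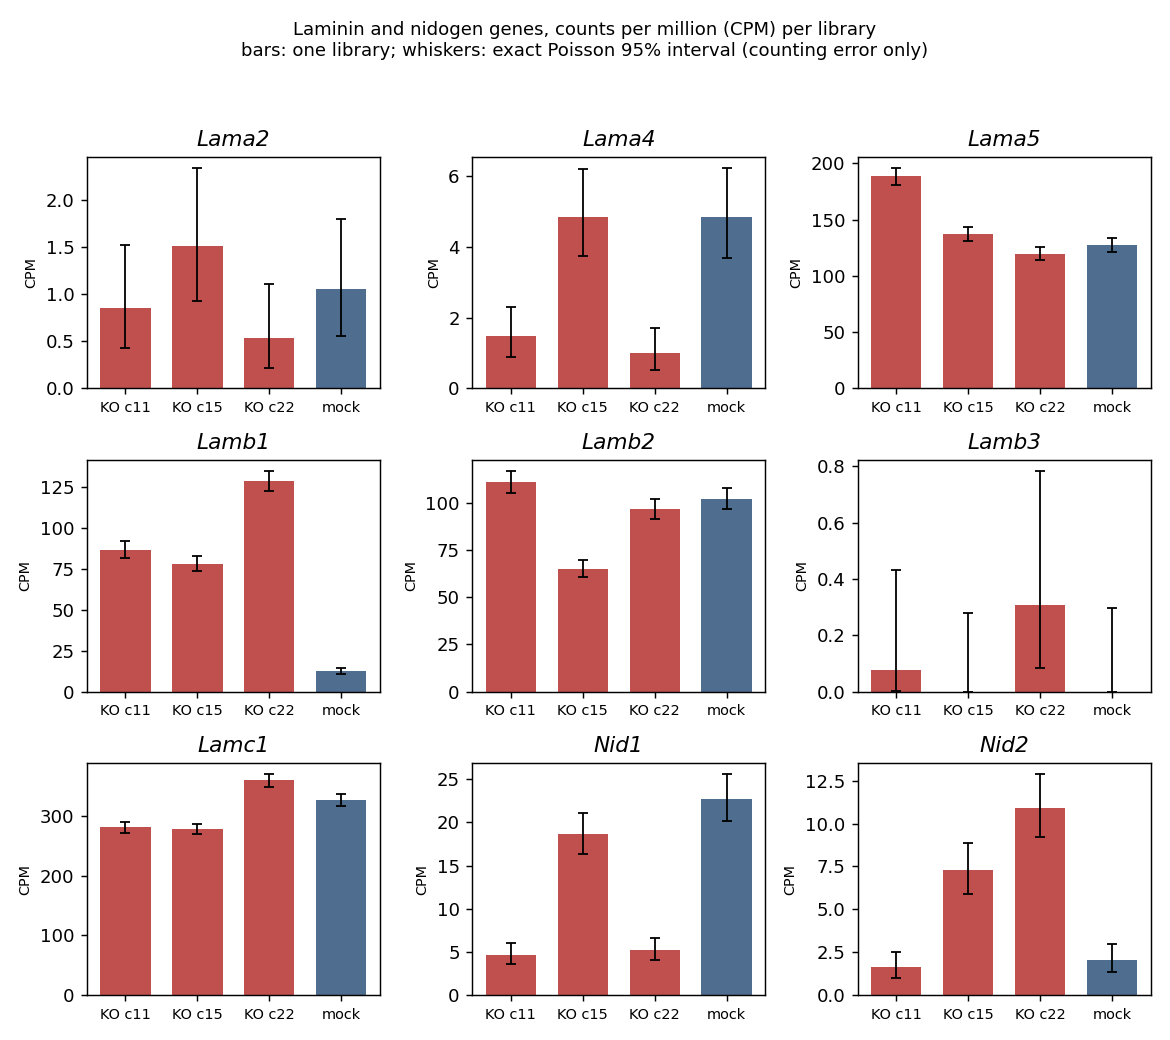
Level of each of the 9 genes in CPM (y axes, from 0) in the knockout libraries c11, c15 and c22 (red) and the mock library (blue). Each bar is 1 library and whiskers are exact Poisson 95% intervals for counting error only. Lamb1 is between 78.0 and 128 CPM in the knockout libraries, against 12.4 CPM in mock, while Lamc1, Lama5 and Lamb2 have mock inside the knockout range.

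Lamc1 encodes the gamma 1 chain, the partner of nearly every laminin outside epithelia and the chain to which nidogens bind. It lies on chromosome 1 from 153218922 to 153332786 (minus strand). Lamc1 was at 281 (c11), 278 (c15) and 360 CPM (c22), against 326 CPM in mock. Mock lay between the knockout libraries. The knockout mean was 306 ± 46.2 CPM, and the log2 fold change was -0.09 (SE 0.31). Its coefficient of variation over the knockout libraries, 15.1%, was the smallest of the 9 genes.

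Of the alpha chains, Lama5 was the abundant one. It encodes alpha 5, the broadly expressed alpha chain of mature basement membranes, and lies on chromosome 2 from 180176373 to 180225859 (minus strand). Lama5 was at 188 (c11), 137 (c15) and 120 CPM (c22), against 127 CPM in mock. Knockout libraries lay on both sides of mock, with a log2 fold change of 0.22 (SE 0.36).

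Lama4 encodes alpha 4, an alpha chain of vessels, fat and mesenchyme, and lies on chromosome 10 from 38965515 to 39110188 (plus strand). It was at 1.47 (c11), 4.85 (c15) and 0.99 CPM (c22), against 4.85 CPM in mock. Libraries c11 and c22 were below mock, while c15 was level with it, and the highest knockout library was 4.88 times the lowest. The log2 fold change was -0.98 (SE 0.89), or -1.97 (SE 0.72) without c15. Lama2 encodes alpha 2, the muscle and Schwann cell alpha chain, and lies on chromosome 10 from 26980036 to 27619758 (minus strand). It had 11 counts in c11, 20 in c15 and 7 in c22, against 13 in mock, and the exact Poisson 95% interval of mock, 0.559 to 1.80 CPM, overlapped those of all 3 knockout libraries.

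The nidogens differed from mock in opposite directions on average. Nid1 encodes nidogen 1, also called entactin, and lies on chromosome 13 from 13437551 to 13512269 (plus strand). Nid1 was at 4.65 (c11), 18.6 (c15) and 5.198 CPM (c22), against 22.8 CPM in mock. All 3 knockout libraries were below mock, c15 by the least. The knockout mean was 9.50 ± 7.93 CPM, and the log2 fold change was -1.25 (SE 0.80). Without c15 it was -2.20 (SE 0.46).

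Nid2 encodes nidogen 2, which shares the laminin-binding role, and lies on chromosome 14 from 19751265 to 19811787 (plus strand). It was at 1.63 (c11), 7.28 (c15) and 10.9 CPM (c22), against 2.02 CPM in mock. Libraries c15 and c22 were above mock and c11 was below it. The log2 fold change was 1.72 (SE 1.18), from 1.14 without c22 to 2.19 without c11. The end of Nid2 overlaps Rtraf on the opposite strand by annotation. Rtraf had 1924, 1792 and 1710 counts in c11, c15 and c22, against 1345 in mock. The kit was directional but the strand setting of the counting is not given in the sources used here, so reads of Nid2 and Rtraf at the overlap may not have been kept apart.

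The window upstream of Nid1 is shown because Nid1 was the other gene with all 3 knockout libraries on 1 side of mock, opposite to Lamb1. Capitals mark the same motifs, of which 1 GC box was found.
Nid1, chr13:13437352-13437550, plus strand: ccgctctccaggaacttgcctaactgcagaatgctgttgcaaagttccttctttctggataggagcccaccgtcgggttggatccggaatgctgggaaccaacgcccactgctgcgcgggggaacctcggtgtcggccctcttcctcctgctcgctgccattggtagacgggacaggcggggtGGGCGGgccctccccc

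**Figure D2:**
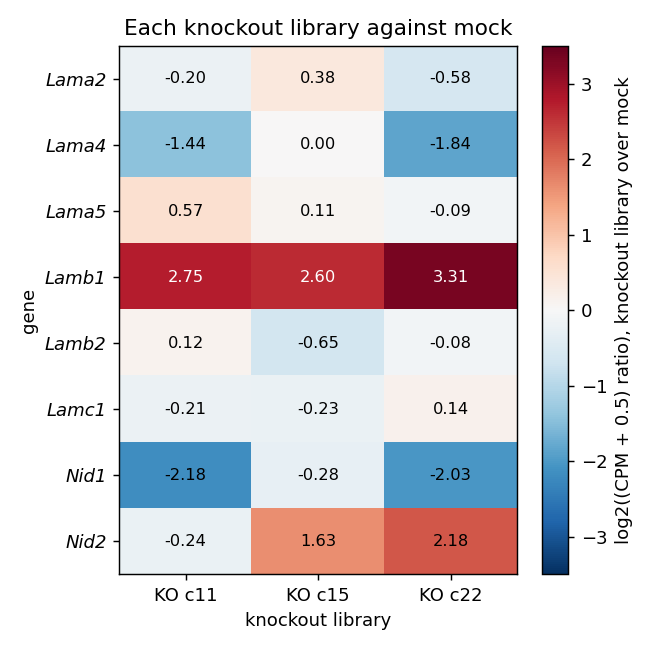
The log2 ratio of each knockout library to mock (colour and number, CPM with 0.5 added) for the 8 genes that passed the filter on low counts. Rows are genes and columns are knockout libraries. Lamb1 is at 2.75, 2.60 and 3.31 in c11, c15 and c22, and Nid1 at -2.18, -0.28 and -2.03.

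Counted over the 8 fitted genes, 1 was above mock in all 3 knockout libraries (Lamb1), 1 was below in all 3 (Nid1) and 6 lay on both sides. Among all 15706 tested genes, 21.0% were above mock in all 3 and 22.5% were below, together 43.4%. With edgeR's quasi-likelihood test and adjustment over all genes, 0 of the 8 passed a threshold of 0.05, as did 0.00637% of all tested genes. At an unadjusted p under 0.05, 1 of the 8 was found, Lamb1, which was higher, beside 3.68% of all tested genes (1.12% higher and 2.56% lower). DESeq2 called 1 of the 8, Lamb1 again, beside 0.726% of all tested genes, and limma-voom called 0. Nothing is read from these counts. The median log2 fold change of the 8 was -0.10, against 0.05 over all tested genes. For 3 of the 8 genes (Lama4, Nid1 and Nid2) the highest knockout library was at least 3 times the lowest, which held for 19.4% of all tested genes.

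Levels of different genes can be compared only per length, so CPM was divided by the length of all annotated exons in kilobases (GENCODE M21). On this scale Lamc1 was first in all 4 libraries, at 34.0, 33.6 and 43.5 CPM per kb in c11, c15 and c22, against 39.4 in mock. Lamb2 was at 18.3, 10.7 and 15.9 CPM per kb in c11, c15 and c22, against 16.8 in mock. Lama5 was at 16.5, 12.03 and 10.5 CPM per kb in c11, c15 and c22, against 11.2 in mock. Lamb1 was at 8.71, 7.86 and 12.9 CPM per kb in the knockout libraries, against 1.25 in mock. By this level Lamb1 was at rank 4 of the 9 in c11 and c15, at rank 3 in c22 and at rank 5 in mock, where Nid1 was above it at 3.28 CPM per kb. Knockout means of Lamb2 (14.9 ± 3.87), Lama5 (13.03 ± 3.14) and Lamb1 (9.83 ± 2.71) overlapped within their SDs, as did those of Nid1 (1.37 ± 1.14) and Nid2 (1.28 ± 0.91). These SDs are between libraries and do not compare genes within a library. Within each knockout library Lamb1 was below Lamb2 on this length. Lama4, Lama2 and Lamb3 were each at 0.402 CPM per kb or less in every library.

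The make-up of the beta chains differed accordingly. Lamb1 made up 32.3%, 42.4% and 44.8% of the summed beta chain level per kb in c11, c15 and c22, against 6.94% in mock. The ratio of Lamb1 to Lamb2 per kb was 0.477 in c11 (95% interval 0.441 to 0.516), 0.736 in c15 (0.671 to 0.806) and 0.814 in c22 (0.757 to 0.877), against 0.0746 in mock (0.0627 to 0.0882). These exact binomial intervals cover counting error only, and the mock interval lay below all 3 knockout intervals. With the longest annotated transcript as the length, the ratio was 0.757, 1.17 and 1.29 in c11, c15 and c22, against 0.118 in mock, so Lamb1 was the larger of the pair in c15 and c22 on that length alone. The summed beta chains were at 27.0, 18.6 and 28.8 CPM per kb in c11, c15 and c22, against 18.1 in mock. The summed alpha chains were at 16.8, 14.5 and 10.98 CPM per kb in c11, c15 and c22, against 13.5 in mock.

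Nidogens differed in make-up as well. Nid2 made up 32.0%, 34.4% and 73.8% of the 2 nidogens per kb in c11, c15 and c22, against 10.6% in mock. The ratio of Nid1 to Nid2 per kb was 2.13 in c11 (95% interval 1.28 to 3.69), 1.91 in c15 (1.502 to 2.44) and 0.354 in c22 (0.261 to 0.476), against 8.41 in mock (5.58 to 13.2). The summed nidogens were at 0.984, 4.09 and 2.86 CPM per kb in c11, c15 and c22, against 3.67 in mock. Library c11 thus had the lowest nidogen sum, and mock lay between c15 and the others.

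**Figure D3:**
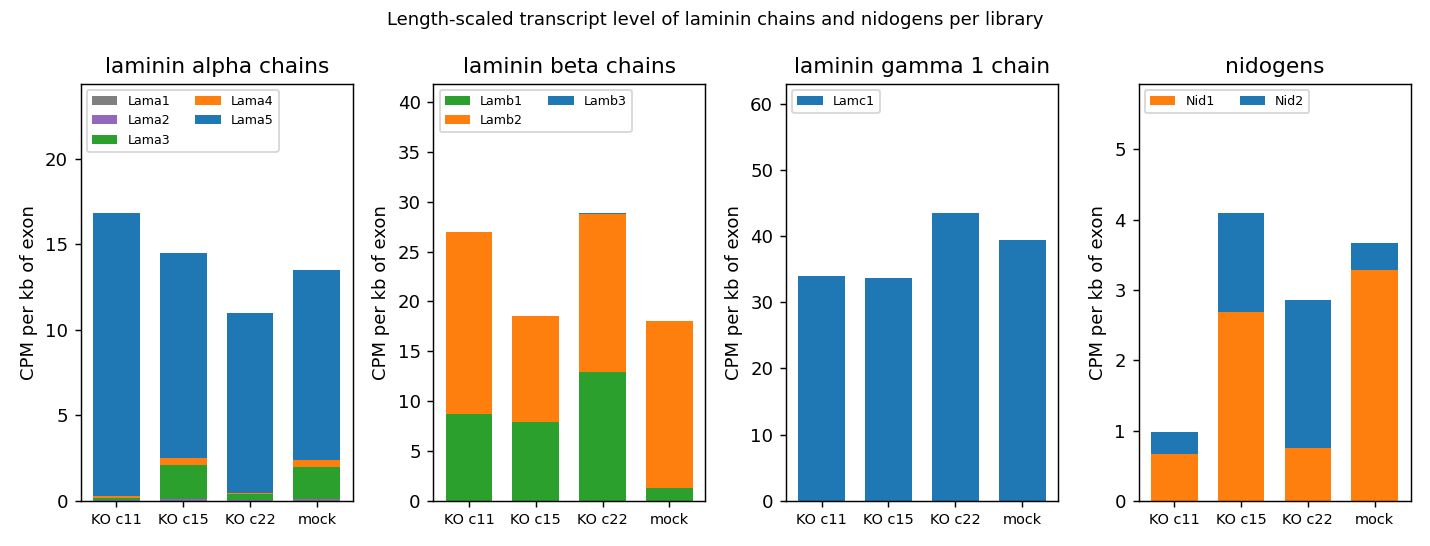
Length-scaled levels (CPM per kb of annotated exon, y axes from 0) stacked by gene for laminin alpha and beta chains, the gamma 1 chain and nidogens, in the knockout libraries c11, c15 and c22 and in mock. The Lamb1 part of the beta chains is 8.71, 7.86 and 12.9 in the knockout libraries, against 1.25 in mock, and Lamc1 is between 33.6 and 43.5 in the knockout libraries, against 39.4 in mock.

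Other laminin chain genes were mostly scarce. Lama3, the alpha chain of epithelial laminin, was at 1.24 (c11), 21.5 (c15) and 3.82 CPM (c22), against 19.9 CPM in mock (log2 fold change -1.16, SE 1.22). It had the c15 value near mock and both others below, the order also found for Nid1 and Lama4. Lama1, the alpha chain of the laminin in matrigel, had 0 counts in all 3 knockout libraries, against 7 in mock, and Lamc3 had 1, 0 and 1 counts in c11, c15 and c22, against 2 in mock. Lama1 and Lamc3 were named after their values were seen.

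Markers of other cell types were read beside these genes. Fibroblast markers summed to 34.1 (c11), 132 (c15) and 112 CPM (c22), against 158 CPM in mock. Of the 8 markers, 4 were below mock in all 3 knockout libraries, beside 22.5% of all tested genes. Decorin, Dcn, was at 6.35 (c11), 30.8 (c15) and 11.9 CPM (c22), against 45.1 CPM in mock. Pdgfra, the receptor gene in that list, was at 5.42, 6.97 and 63.8 CPM, against 15.2 CPM. Nid1 and Lama4 had the same ranking of libraries as Dcn for c15 and mock above c11 and c22, and the part of fibroblast RNA in their values was not tested.

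Endothelial markers summed to 14.9 (c11), 11.2 (c15) and 8.56 CPM (c22), against 17.0 CPM in mock. Most of that was Egfl7, at 13.01, 8.79 and 6.96 CPM, against 12.4 CPM, with Tek at 0.387, 1.59 and 0.535 CPM, against 2.503 CPM. Tie1 and Esam had 0 counts in every library. The pericyte genes Rgs5, Kcnj8 and Abcc9 had at most 3 counts in any library, and that list's sum of 322 (c11), 168 (c15) and 250 CPM (c22), against 167 CPM in mock, was almost all Pdgfrb (213, 47.2 and 196 CPM, against 47.5 CPM) and Cspg4 (100, 115 and 52.1 CPM, against 93.3 CPM).

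Muscle markers summed to 5.89 (c11), 1.74 (c15) and 28.0 CPM (c22), against 138 CPM in mock, led by Myh4 (0, 0 and 5.05 CPM, against 31.3 CPM) and Acta1 (3.18, 0.455 and 5.58 CPM, against 24.1 CPM). Erythroid markers summed to 1.63, 4.24 and 41.1 CPM, against 116 CPM, with Hbb-bs at 0.697, 2.05 and 24.0 CPM, against 52.0 CPM, and Hba-a1 at 0.077, 1.52 and 11.3 CPM, against 46.0 CPM; globin gene copies can share reads. Macrophage markers summed to 240, 324 and 418 CPM, against 779 CPM, with Lyz2 at 142, 188 and 266 CPM, against 554 CPM, and Csf1r at 24.6, 35.4 and 32.9 CPM, against 47.6 CPM. Schwann cell markers summed to 5.50, 9.93 and 8.10 CPM, against 14.1 CPM, mostly Mbp (3.64, 8.26 and 5.27 CPM, against 10.3 CPM).

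Adipocyte markers summed to under 1 CPM in each knockout library, against 1.37 CPM in mock, and keratinocyte and epithelial markers also summed to under 1 CPM in every library; Plin4, Fabp4, Epcam and Trp63 led those lists with at most 8 counts. The summed fibroblast, endothelial, muscle, macrophage, erythroid and Schwann cell markers were below mock in every knockout library, while Lamb1 was above it. By gene, being below mock in all 3 held for 10 of 10 muscle, 5 of 5 erythroid and 7 of 8 macrophage markers. It held for 4 of 8 fibroblast, 2 of 4 tested endothelial and 2 of 3 tested Schwann cell markers, beside 22.5% of all tested genes. The part of these cell types in the Lamb1 value was not tested. The sum of the pericyte and smooth muscle list was above mock in all 3, by less than 1 CPM in c15, but 0 of its 3 tested genes were above mock in all 3 and their median log2 fold change was -0.07. Its other tested gene, Notch3, named after its values were seen, was at 8.99, 5.23 and 1.53 CPM, against 25.9 CPM, below mock in all 3.

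**Figure D4:**
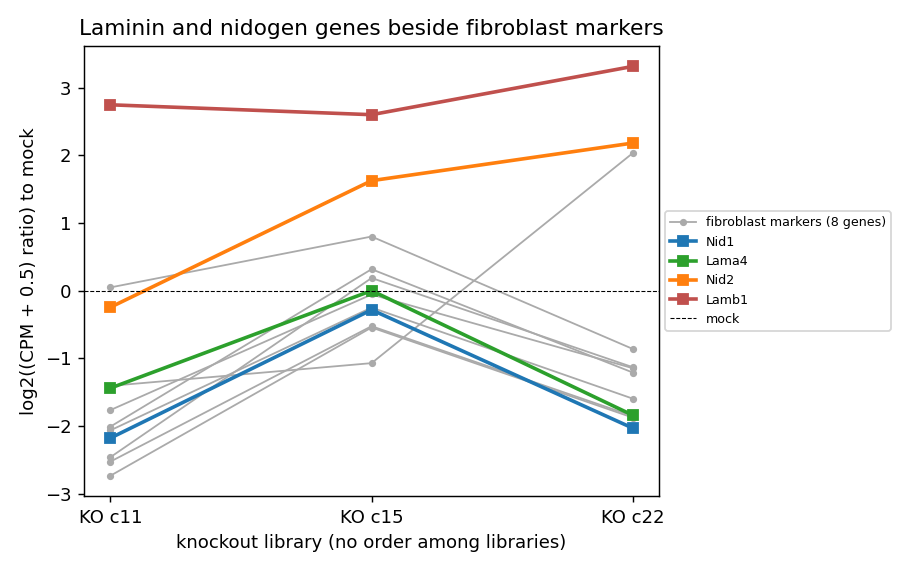
The log2 ratio to mock (CPM with 0.5 added, y axis) in each knockout library for Nid1, Lama4, Nid2 and Lamb1 (coloured) and for 8 fibroblast markers (grey); the dashed line is mock, and the lines joining libraries imply no order. Nid1 is at -2.18, -0.28 and -2.03 in c11, c15 and c22, where the medians of the fibroblast markers are -2.04, -0.15 and -1.18, while Lamb1 is between 2.60 and 3.31.

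Other basement membrane genes were read in the same knockout against mock fit. Of 30 such genes listed, 22 were tested, and 0 passed edgeR's test over all genes in either direction; 0 had an unadjusted p under 0.05, and DESeq2 and limma-voom called 0. Above mock in all 3 knockout libraries were 4 of the 22, and below were 5, near the shares of 21.0% and 22.5% over all tested genes. The median of their log2 fold changes was 0.94, against 0.05 over all tested genes. It was -0.08 without c11, where the library median was 0.78, against -0.26 in c15 and -0.15 in c22. With limma-voom it was 0.07.

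Several genes of that list differed widely between knockout libraries. Sparc, named after its values were seen, was at 865 (c11), 297 (c15) and 1429 CPM (c22), against 378 CPM in mock. Col4a1, a chain of the main collagen IV of basement membranes, was at 113 (c11), 6.67 (c15) and 1.61 CPM (c22), against 11.9 CPM in mock. Its head-to-head neighbour Col4a2 was at 79.3 (c11), 4.17 (c15) and 0.994 CPM (c22), against 9.69 CPM in mock. Col4a6 had 303 counts in c15 and 0 in c11 and c22, against 1 in mock. Tinagl1, a matricellular basement membrane gene, was at 29.4 (c11), 3.71 (c15) and 31.6 CPM (c22), against 4.12 CPM in mock (log2 fold change 2.39, SE 1.29). In these genes the gap in CPM between the highest and lowest knockout library was wider than that between the knockout mean and mock. By SD this did not hold for Tinagl1, whose knockout mean was 21.6 ± 15.5 CPM.

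On the lower side, Fbln1, which encodes the laminin-binding and nidogen-binding fibulin 1, was at 17.2 (c11), 5.46 (c15) and 3.29 CPM (c22), against 26.8 CPM in mock (log2 fold change -1.64, SE 0.81). Ntn4, the gene of a netrin that interrupts laminin assembly, was at 3.41, 6.37 and 22.6 CPM, against 20.4 CPM. The heparan sulfate proteoglycan genes Hspg2 (perlecan) and Agrn (agrin) were named after their values were seen. Hspg2 was above mock in all 3 knockout libraries, at 329 (c11), 496 (c15) and 280 CPM (c22), against 267 CPM in mock. Agrn lay on both sides, at 120, 353 and 51.8 CPM, against 107 CPM. Col4a5, also named after its values were seen, was above mock in all 3, at 39.8, 30.4 and 80.3 CPM, against 16.4 CPM. Its log2 fold change was 1.62 (SE 0.68). Of the 22 tested genes of that list, 4 were above mock in all 3 and 5 below.

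Receptors for laminin and other basement membrane proteins were fitted for 15 of 15 listed genes, and 0 passed edgeR over all genes. At an unadjusted p under 0.05, 1 was higher (Itga3) and 1 lower (Sdc4), beside 1.12% and 2.56% of all tested genes. DESeq2 called 1, Itga3, beside 0.726% of all tested genes, while limma-voom called 0. Above mock in all 3 knockout libraries were 4 of the 15, and below were 5, beside 21.0% and 22.5% of all tested genes. Nothing is read from these counts. Itga3 encodes the alpha 3 integrin subunit, which with beta 1 binds laminins that carry alpha 3 or alpha 5. Itga3 was at 82.9 (c11), 47.6 (c15) and 94.1 CPM (c22), against 15.1 CPM in mock. All 3 knockout libraries were above mock, with a log2 fold change of 2.31 (SE 0.54, edgeR adjusted p = 0.528). Across the other edgeR and limma-voom settings its adjusted p was from 0.219 without c15 to 1.00 without c11, and DESeq2 gave 0.00364.

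The syndecan gene Sdc4 was at 69.9 (c11), 70.4 (c15) and 78.9 CPM (c22), against 142 CPM in mock (log2 fold change -0.95, SE 0.29, edgeR adjusted p = 0.887). Dag1, which encodes dystroglycan, the receptor for the globular domains of alpha chains, was at 179, 197 and 175 CPM, against 237 CPM (log2 fold change -0.36, SE 0.28). Of the other syndecans, Sdc1 had a log2 fold change of 0.01 (SE 0.48) and Sdc2 of 0.54 (SE 0.35), and the collagen receptor gene Ddr2 had 0.36 (SE 0.28). Itgb1, the shared beta subunit of the laminin-binding integrins and named after its values were seen, was at 480 (c11), 445 (c15) and 414 CPM (c22), against 399 CPM in mock. The list's median was 0.08, and -0.31 without c11. Beside this list, Pdgfrb was above mock in c11 and c22 and 7 of 8 macrophage markers were below mock in all 3 knockout libraries; their part in it was not tested.

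Genes of alpha-dystroglycan glycosylation build the sugar chain by which dystroglycan holds laminin. Of 14 in the table, 12 were tested and 0 passed edgeR, DESeq2 or limma-voom in either direction, with 0 at an unadjusted p under 0.05 in edgeR. Their median log2 fold change was -0.02, and the library medians were 0.14, 0.00 and -0.17 in c11, c15 and c22. Fold changes ran narrowly. Pomk, a kinase of the core sugar, had the lowest log2 fold change of the named genes (-0.57, SE 0.34). Its level was 24.8 (c11), 23.0 (c15) and 28.2 CPM (c22), against 37.8 CPM in mock. The mannose transferase gene Pomt2 had the highest log2 fold change of the named genes (0.34, SE 0.34). Its level was 40.9, 37.1 and 33.3 CPM, against 29.5 CPM. The log2 fold change was -0.24 (SE 0.42) for Pomgnt2, -0.19 (SE 0.38) for Pomt1 and 0.31 (SE 0.41) for Gmppb.

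**Figure D5:**
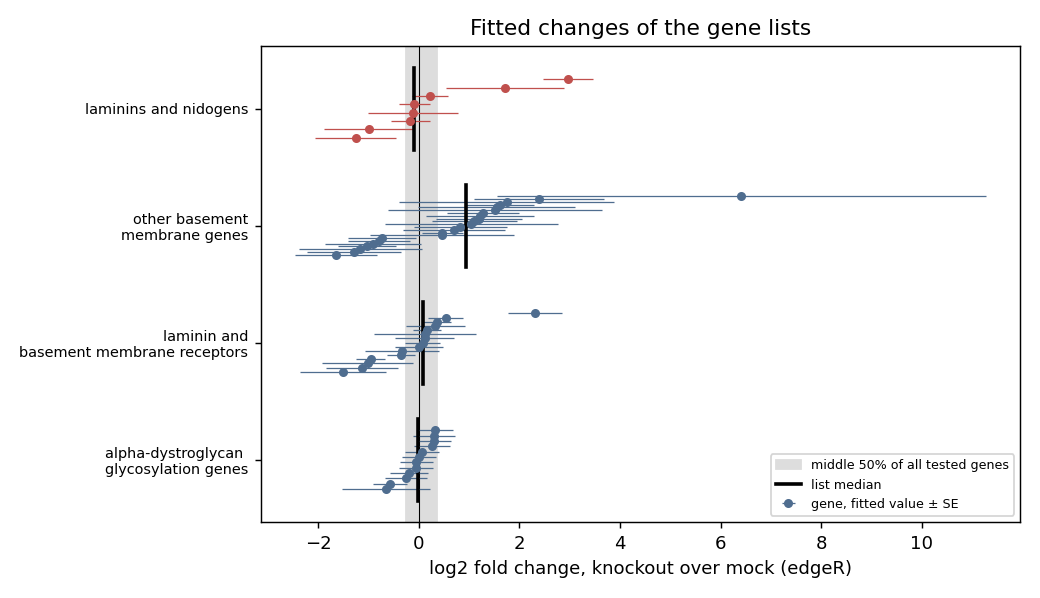
Fitted log2 fold change, knockout over mock (x axis, points with SE), for each tested gene of the laminin and nidogen set (red) and of 3 other lists (blue); black bars are list medians and the grey band is the middle 50% of all tested genes. Medians are -0.10, 0.94, 0.08 and -0.02 from top to bottom, and Lamb1 at 2.98 is the rightmost red point.

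By likeness of pattern, the genes nearest to Lamb1 over the 4 libraries were Ogn, Sdf2l1, Enpp5, Clcf1 and Rnd1. Likeness was the Euclidean distance between mean-centred log2 values (CPM with 0.5 added) among 10109 protein-coding genes with a mean of at least 5 CPM, predicted gene names left out. Ogn, which encodes the small matrix proteoglycan osteoglycin, had a distance of 0.131, with 73.4 (c11), 66.5 (c15) and 115 CPM (c22), against 11.8 CPM in mock. Sdf2l1, an endoplasmic reticulum chaperone gene, had a distance of 0.403 and was at 184, 139 and 209 CPM, against 29.5 CPM. Distances of the other 3 were from 0.541 to 0.597. No laminin or nidogen gene was near: the closest to Lamb1 was Nid2 at a distance of 2.16. The smallest distance within the set was between Nid1 and Lama4, at 0.542, and the next between Lamb2 and Lamc1, at 0.558.

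Position was also read. Within 500 kb of Lamb1, 8 other genes were tested, and their log2 fold changes ran from -0.29 to 0.41 with a median of -0.09. Among them Dld, the dihydrolipoamide dehydrogenase gene, was at 199 (c11), 198 (c15) and 191 CPM (c22), against 168 CPM in mock, and Cog5, a Golgi tethering gene, at 76.5, 57.8 and 87.4 CPM, against 55.7 CPM. None of the 8 had a log2 fold change above 0.41. Around Nid1 the log2 fold changes of 9 tested genes ran from -0.41 to 2.06, and around Nid2 those of 7 ran from -2.21 to 0.35. Dld and Cog5 were named after their values were seen.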

How the data were processed

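The authors deposited raw read counts by Ensembl gene for each library, with symbols and GRCm38 coordinates; per the labels' protocols, poly(A) RNA was made into libraries with a directional kit. The submitters' processing notes name HISAT2 2.1.0, featureCounts 1.6.3, SAMtools 1.9, Trimmomatic 0.38 and FastQC 0.11.7; their settings are not given in the sources used here, so reads of overlapping genes and near copies may be shared. Where several IDs held 1 symbol, the ID with most counts kept it. Of 55487 genes, 54784 had identical coordinates in GENCODE M21, whose exons gave lengths. CPM used each library's total count of 12383719 to 13193264. No 2 libraries were copies: chi-square per gene was from 44.3 to 82.8 between pairs.

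After filterByExpr (15706 genes, 99.9% of counts) and TMM scaling, genes were compared by the quasi-likelihood test of edgeR 4.0.16 (adjusted deviances, robust, 2-sided) in R 4.3.3, with Benjamini-Hochberg adjustment at 0.05. The 3 knockout libraries formed 1 group. The lone mock library was assumed to vary as they do, so the spread rests on residual df of 2 and prior df of 3.77, with a biological variation (BCV) of 0.442. SE is the log2 fold change over the root of F. DESeq2 1.42.0, limma-voom (limma 3.58.1), other scalings and filters and leaving out each knockout library were the alternatives. The test was tested on simulated data with known changes in genes above 5 CPM. Simulated libraries varied less than a BCV of 0.442, so this does not show how the test performs on these data. The genes and lists were chosen with earlier results of these data known. Named genes were the 9 genes, Hif1a, from each of 3 pathway lists the 3 highest and 3 lowest log2 fold changes at a mean of at least 5 CPM, the 2 most abundant genes of each marker list and the 5 genes nearest to Lamb1. Some genes this rule names are not reported here. Counting intervals are 95%, and the limit a count of 0 allows is 3 counts. p-values measure only the spread between these libraries.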

Additional observations from a re-analysis of the deposited data

How the results depend on the processing

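Among all tested genes, edgeR called 0 higher and 1 lower; the 1 call was lost with limma-voom, with edgeR's legacy quasi-likelihood fit (an alternative added after seeing the data) and without each of c11, c15 and c22 (from 0 to 0 genes lower). With no filter 4 were called lower, and DESeq2 called 48 higher and 66 lower. DESeq2 also called 1 receptor gene higher. The median of the other basement membrane genes was 0.0719 with limma-voom, and from -0.0766 to 1.02 with 1 knockout library left out. The receptor median was from -0.307 to 0.161 in the same way. The cause was not tested. Of 79 fitted values of the laminin and nidogen genes under 10 alternatives, 78 moved by less than 1 SD of the knockout libraries and 1 moved further, Lama4 without c15. Signs turned for Lama2 without c22 (0.17) and Lamb2 without c15 (0.02). Lamb1 stayed between 2.72 and 3.12 on the log2 scale. The order of the 9 genes by level per kb changed in 2 libraries with the longest transcript as length. No paired analysis was possible because the knockout columns carry no replicate numbers and there is 1 mock library. With 1 mock library and few counts for Lamb3, Lama2 and Lama4, small differences were not detectable at this depth.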
